A study of Mus musculus with 49 samples.

Results

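The comparison described here set the colons of mice that drank water with dextran sodium sulfate (DSS), a polymer that damages the lining of the large intestine, against the colons of mice that drank plain water. Both groups had been injected with phosphate-buffered saline (PBS), the vehicle of antibodies given to other groups of the study. Libraries were chosen by their titles, and the comparison held 11 of the 26 colon libraries and of the 49 libraries in all: 6 from DSS with PBS and 5 from water with PBS. Per the labels, all 11 came from mice described as a model of DITRA, the inherited deficiency of the interleukin-36 receptor antagonist, on a background of 75% C57BL/6NTac and 25% 129S6/SvEvTac. The alleles behind the model, the age of the mice, the dose and length of the DSS course and the stretch of colon taken are not given in the sources used here. All groups carried the model, so the comparison is of DSS against water within it and has no unmodified mice. The labels number every sample separately but do not say that each came from its own animal, and p-values therefore measure only the spread between these samples.

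DSS colitis is a standard model of acute injury of the large intestine. Loss of the epithelial barrier brings bacteria into contact with macrophages and stromal cells, which release interleukin-1, interleukin-6 and tumour necrosis factor, and these act through the transcription factors NF-kB and STAT3. Chemokines that bind CXCR2 then draw neutrophils from the blood, interferons raise antigen presentation, and fibroblasts and endothelium remodel the wall. The absorptive colonocyte, which takes up salt and water, burns short-chain fatty acids and detoxifies foreign compounds, is among the cells that such injury removes.

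The genes of the CXCR2 chemokines Cxcl1, Cxcl2 and Cxcl3 are shown first because they lie together on chromosome 5 and were among the genes that rose most. Printed 5′ to 3′ are the 150 bases before each RefSeq start (assembly GRCm38.p6), in lower case, with the match to the NF-kB letters GGANTTTCC in capitals. The windows lie at chr5:90891095-90891244, plus strand (Cxcl1), chr5:90903749-90903898, plus strand (Cxcl2) and chr5:90785951-90786100, plus strand (Cxcl3). The interferon-stimulated gene Isg15 is shown as well, at chr4:156200819-156200968, minus strand, with 3 overlapping matches to the interferon response letters GAAANNGAA joined in 1 run of capitals. Its window also held a match to the NF-kB letters, read on the opposite strand, which is left in lower case.
Cxcl1: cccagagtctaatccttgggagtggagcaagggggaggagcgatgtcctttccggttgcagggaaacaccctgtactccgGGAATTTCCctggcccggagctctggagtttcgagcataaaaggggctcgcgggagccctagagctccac
Cxcl2: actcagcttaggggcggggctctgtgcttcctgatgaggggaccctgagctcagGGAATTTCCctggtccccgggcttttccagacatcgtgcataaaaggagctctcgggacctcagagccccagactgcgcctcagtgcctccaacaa
Cxcl3: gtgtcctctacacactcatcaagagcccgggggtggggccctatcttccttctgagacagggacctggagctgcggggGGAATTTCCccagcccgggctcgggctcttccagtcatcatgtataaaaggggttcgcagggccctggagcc
Isg15: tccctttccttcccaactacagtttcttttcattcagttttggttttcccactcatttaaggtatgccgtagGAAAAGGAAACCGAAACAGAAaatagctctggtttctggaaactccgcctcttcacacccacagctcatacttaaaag
The 9 bases in capitals were the same in the 3 chemokine genes and began 70, 96 and 72 bases before the start of Cxcl1, Cxcl2 and Cxcl3. No other motif searched overlapped the capitals in these 4 windows.

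Both strands of the RefSeq windows (250 bases before to 50 after the start) were searched for 6 motifs in the 12347 tested genes that had a window. The NF-kB letters stood in a window of 1.65% of those genes, and in 6.87% of the 262 that rose by a log2 fold change of 3 or more. The genes printed above were chosen by hand. Among the 5 genes of neutrophil recruitment with a window, the letters stood in 3, the printed Cxcl1, Cxcl2 and Cxcl3. They were absent from the windows of Ppbp and Pf4, and Cxcl5 and Csf3 had no window. The letters TGANTCA, bound by AP-1, stood in 6.86% of all and in 17.2% of the same 262 genes. The interferon response letters stood in 8.91% of all genes with a window, in 8 of 13 interferon-stimulated genes on the list used below and in 5 of 14 genes of antigen presentation. The STAT letters TTCNNNGAA stood in 8.49% of all and in 12.6% of the genes that rose by 3 or more. Of the 361 genes that fell by a log2 fold change of 1 or more, 1.66% had the NF-kB letters, 7.48% the AP-1 letters and 6.37% the interferon response letters. The letters CAAAGTCCA, bound by HNF4, a factor of absorptive epithelium, stood in 0.526% of all, in 0.831% of those 361, in 0.869% of the 1266 genes that rose by a log2 fold change of 1 or more, in 0 of the 262 that rose by 3 or more and in 3 of 22 xenobiotic metabolism genes (Cyp2c65, Cyp2c68 and Sult1b1). The letters TTTATNG, which the gut factor CDX can bind, stood in 8.84% of all, 19.1% of the genes that rose by 3 or more and 13.3% of those that fell. On the opposite strand these letters read CNATAAA, which a TATA box can also match. Such matches were not told apart, so these shares are not particular to CDX. STAT and interferon response matches overlapped in 29 windows, and every other pair of motifs in 7 or fewer. These are matches of letters, given as a description without a test. Genes with several starts had several windows and so more room for a match.

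The libraries held between 15506404 and 18663357 assigned reads each, and no pair agreed within counting noise. Il1f5, the gene of the interleukin-36 receptor antagonist (also named Il36rn, Entrez gene ID 54450, chr2:24276954-24282432), had 0 counts in all 11 libraries. Since it was 0 in every colon library of the study, that count checks nothing about the model. Markers of colon epithelium were present in every library: Vil1, an actin bundler of the brush border, ranged over 519 to 624 CPM in water and 155 to 601 CPM in DSS colon, and the gut identity factor Cdx2 over 13.5 to 187 CPM and 4.49 to 86.6 CPM. On the first principal component (53.5% of the variance of log2 CPM, read counts scaled to library size) the water libraries lay between −72.2 and −55.7 and the DSS libraries between 13.7 and 110. The second (12.9%) set DSS library 2 (−79.9) apart from the rest.

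Several libraries stood apart within their group, and results that rest on them are given with and without them. Water library 4 had 0.212 CPM of Hoxd13 and 1.84 CPM of Hoxb13, position genes of the hindmost gut, against 134 to 170.3 CPM and 364 to 400.2 CPM in the other water libraries. It also held 744 CPM of Itln1, a lectin of goblet and Paneth cells, 459 CPM of Ang4, and 46428 CPM of the mucin Muc2, for which the other 4 ranged over 2503 to 4103 CPM. DSS libraries 1 and 4 were low in Hoxd13 as well, at 5.35 CPM and 8.43 CPM against 55.2 to 104 CPM in the other DSS libraries. Hoxb13 ranged over 45.8 to 254 CPM in DSS colon, below every water library except 4. It did not pass over all libraries (log2 fold change −0.91, adjusted p = 0.221) and passed without water 4 (−1.23, adjusted p = 0.00215). Of 7 tested posterior gut genes 1 was lower over all libraries and 3 without water 4. DSS library 6 alone was rich in keratins of layered squamous epithelium, with 1499 CPM of Krt5 and 1069.7 CPM of Krt14, against 0.191 to 11.1 CPM and 0.0637 to 11.8 CPM in the other DSS libraries. DSS library 2 was poor in the lymphocyte and antigen presentation genes that rose in the other DSS libraries. Of 5 tested squamous markers 4 passed the test upwards (Krt5, Krt13, Krt14 and Dsg3). Without DSS 6 they were 3, and Krt10, a keratin of the upper squamous layers (−0.64 ± 0.276, adjusted p = 0.0792 over all libraries), passed downwards (−0.93, adjusted p = 0.00759). The mean level over the 5 genes was 7.24 log2 CPM in DSS 6, −1.66 to 2.25 in the other DSS libraries and −1.28 to −0.44 in water colon. The squamous markers Trp63, Krt4, Lor and Sprr3 were below the count filter. Krt14 lost its call without DSS 6 (adjusted p = 0.36), and the log2 fold changes of Krt5 (9.55 ± 2.07, adjusted p = 0.00111) and Krt13 (6.87 ± 1.53, adjusted p = 0.00144) became 2.98, adjusted p = 0.0209 and 2.07, adjusted p = 0.0369 without it. The part that segment or neighbouring tissue played in the results below was not tested.

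**Figure D1:**
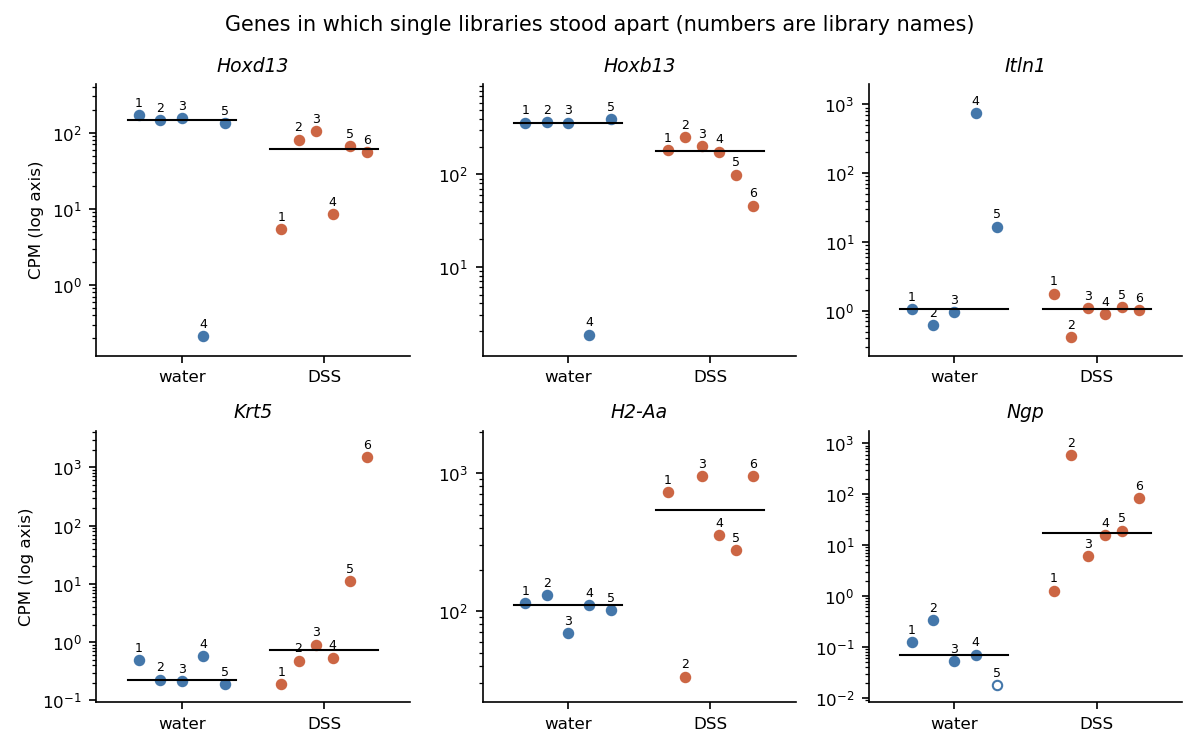
Normalised expression (CPM, log axis) of Hoxd13, Hoxb13, Itln1, Krt5, H2-Aa and Ngp, a neutrophil granule gene, in the 5 water and 6 DSS libraries. Points carry the library number, bars are group medians and an open point marks 0. Water 4 sits far below the others in Hoxd13 and Hoxb13, DSS 6 far above in Krt5, and DSS 2 below the water libraries in H2-Aa.

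Of 24475 genes in the table, 15731 passed the count filter and were tested with edgeR's quasi-likelihood test. At a Benjamini-Hochberg adjusted p under 0.05, 5073 genes (32.2%) differed: 2765 (17.6%) were higher and 2308 (14.7%) lower in DSS colon. All 6 DSS libraries lay above all 5 water libraries in 1262 genes (8.02%) and below them in 796 (5.06%). Large changes were mostly rises, since 274 genes that passed the test and had a mean of at least 2 CPM rose by a log2 fold change of 3 or more and 14 fell by as much. Without water library 4, 2845 genes were higher (18%) and 2250 lower (14.2%) of 15843 tested, and 218 of the higher and 392 of the lower genes of the full comparison no longer passed. Shares of 17.6% and 14.7% are the background against which the list counts below are read. Genes near 0 in water colon entered the test through their level in DSS colon, and for such genes a high count is partly set by the filter.

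**Figure D2:**
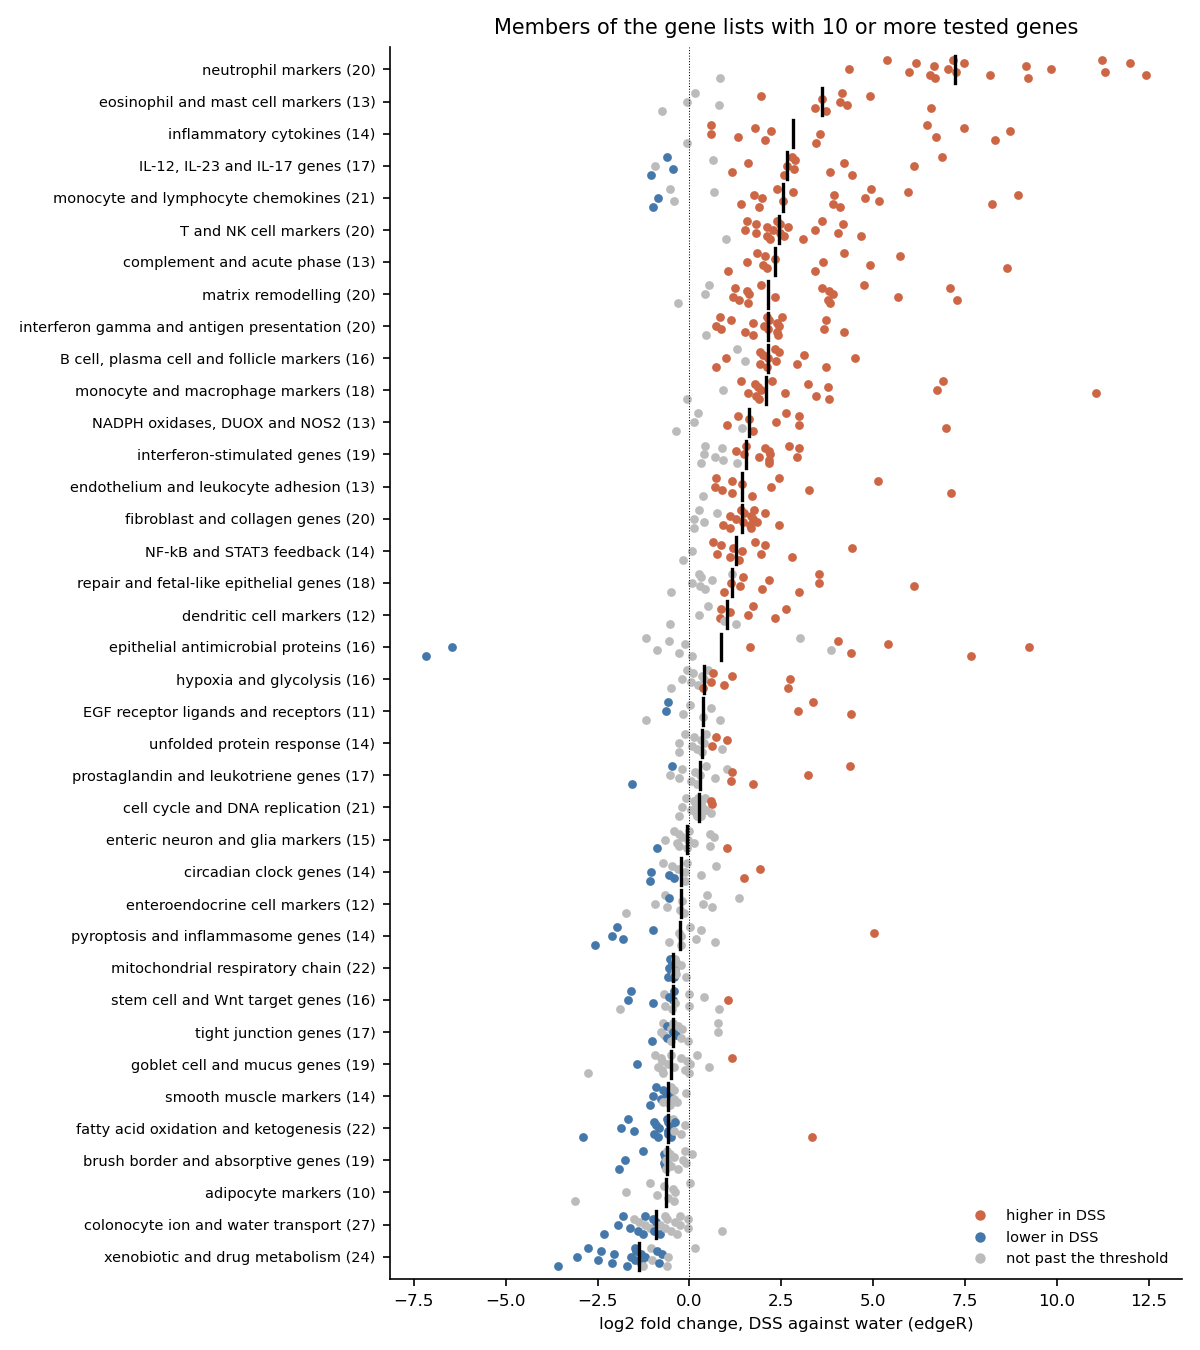
Log2 fold changes (DSS against water) of the tested members of each gene list with at least 10 tested genes, number tested in parentheses. Points are genes coloured by the test at an adjusted p under 0.05 and bars are medians, which run from 7.22 for neutrophil markers to −1.38 for xenobiotic and drug metabolism.

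The largest rises belonged to neutrophils, to CXCR2 chemokines and to the keratins Krt90 and, mostly in DSS library 6, Krt6b. Of the 15 genes with the largest log2 fold change, 12 had no overlap between groups. All ranked sets were picked from genes that had passed in these same libraries, so such counts partly follow from the choice. Krt6b, a keratin of stressed squamous epithelium, led the list with 0 counts in water colon and was at least 1922-fold higher in DSS colon (floor of 3 counts over the 5 libraries), but 392 CPM of it lay in library 6 and 0.12 to 3.67 CPM in the others. Prok2, a secreted protein of neutrophils, was likewise at 0 in water and at least 276-fold higher. Stfa2 and Cstdc4, protease inhibitors of the stefin family, were at least 268-fold and 263-fold higher, and Mrgpra2b, a receptor gene, at least 255-fold. Ppbp, a platelet CXCR2 chemokine, was at 615 CPM in library 6 and 0 to 7.46 CPM in the other 5 (log2 fold change 10.16 ± 2.09 (SE), adjusted p = 0.000688; 4.85, adjusted p = 0.0035 without DSS 6). The near-identical Ccl21c and Ccl21d, lymphatic chemokines between which reads cannot be assigned, were at 0 in water and in DSS libraries 2 and 3 and at least 235-fold higher over the group. The keratin gene Krt90 had 1 count in the 5 water libraries together and 2479 in DSS colon (2047-fold, 95% counting interval 367 to 80883), and Clec4e, a receptor for microbial glycolipids on myeloid cells, 1 and 4750 (3922-fold, 95% counting interval 704 to 154949.6). The counts of Krt90, Cstdc4 and other genes here were not whole in most libraries, because the authors' program divides reads shared between similar genes, and their values are uncertain.

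CXCR2 chemokines and the granulocyte growth factor Csf3 rose in DSS colon. Of the 8 genes of neutrophil recruitment listed, 7 were tested and 6 were higher (median log2 fold change 9.29, against −0.03 over all genes tested). Cxcl1 (Entrez gene ID 14825, chr5:90891245-90893121) stood at 0.555, 0.507, 0.214, 0.141 and 0.312 CPM in water libraries 1 to 5, the order kept below, and from 8.11 to 78.9 CPM (median 25.1) in DSS colon. No DSS library came near the water range (log2 fold change 6.51 ± 0.752 (SE), adjusted p = 1.32e-06). Cxcl2 (Entrez gene ID 20310, chr5:90903899-90905938) read 0, 0.169, 0.0534, 0 and 0 CPM in water and from 3.71 to 173 CPM (median 24.8) in DSS (9.73 ± 1.4, adjusted p = 1.3e-05). Cxcl3 had 1 count in all 5 water libraries and 2943 in DSS colon (2430.1-fold, 95% counting interval 436 to 96016), at 3.85 to 75.7 CPM there. Cxcl5, made mainly by epithelium, rose with 0.0707 to 1.8 CPM in water and 29.1 to 341 CPM in DSS colon (log2 fold change 7.42 ± 0.983 (SE), adjusted p = 5.21e-06). Csf3, the growth factor that drives granulocyte output, had 1 water count and lay at 1.2 to 27 CPM in DSS colon (1029.7-fold, 95% counting interval 184 to 40702). DSS library 5 was highest for Cxcl1, Cxcl2, Cxcl3 and Cxcl5. Pf4, the other platelet chemokine, did not pass (0.08 ± 0.391, adjusted p = 0.901), and Csf2 was too low to test.

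Inflammatory cytokines followed, with 13 of 14 tested members higher (median 2.83). Il1b (Entrez gene ID 16176, chr2:129364569-129371164), the cytokine released by inflammasomes, stood at 1.17, 1.07, 0.534, 1.7 and 0.562 CPM in water colon and from 73.4 to 1007 CPM (median 123) in DSS colon. The groups were separated by more than their whole water range (log2 fold change 8.31 ± 1 (SE), adjusted p = 2.01e-06). Il6 was at 0.0617, 0.113, 0.0534, 0 and 0 CPM against 0.902 to 19 CPM in DSS colon (7.46 ± 0.99, adjusted p = 5.32e-06). Tnf rose less, with 0.374 to 1.86 CPM in water and 4.12 to 27.9 CPM in DSS colon (log2 fold change 3.55 ± 0.512 (SE), adjusted p = 1.36e-05). Osm, a stromal activator of the interleukin-6 family, rose with 0.16 to 0.309 CPM in water and 6.37 to 75.8 CPM in DSS colon (6.72 ± 0.784, adjusted p = 1.36e-06), Il1a by 8.74 and Il11 by 6.46 on the log2 scale. The antagonist Il1rn rose by 1.34, and anti-inflammatory Il10 by 3.45. Calls for the ligands of the macrophage growth receptor were close to the threshold and were lost when any of several libraries was left out. Csf1 (0.58 ± 0.213, adjusted p = 0.0396) lost its call without water 3, 4 or 5 or DSS 3, 5 or 6 (adjusted p = 0.0705 to 0.111), and Il34 (0.59 ± 0.222, adjusted p = 0.0429) without water 1, 3 or 4 or DSS 2, 3, 5 or 6 (adjusted p = 0.0599 to 0.11). Il18, a cytokine of resting epithelium, did not pass (−0.06 ± 0.329, adjusted p = 0.914).

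Feedback genes of NF-kB and STAT3 were higher in 12 of 14 cases, by smaller amounts (median 1.28). Socs3, the inhibitor induced by STAT3, rose most (log2 fold change 4.42 ± 0.422 (SE), adjusted p = 4.78e-07), followed by Steap4, a metal reductase (2.78 ± 0.432, adjusted p = 3.28e-05). Nfkbia, an inhibitor of NF-kB that it induces itself, and Nfkbiz, a nuclear member of the same gene family, rose by 1.20 and 1.43. Tnip1 (−0.17 ± 0.136, adjusted p = 0.364) did not pass.

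**Figure D3:**
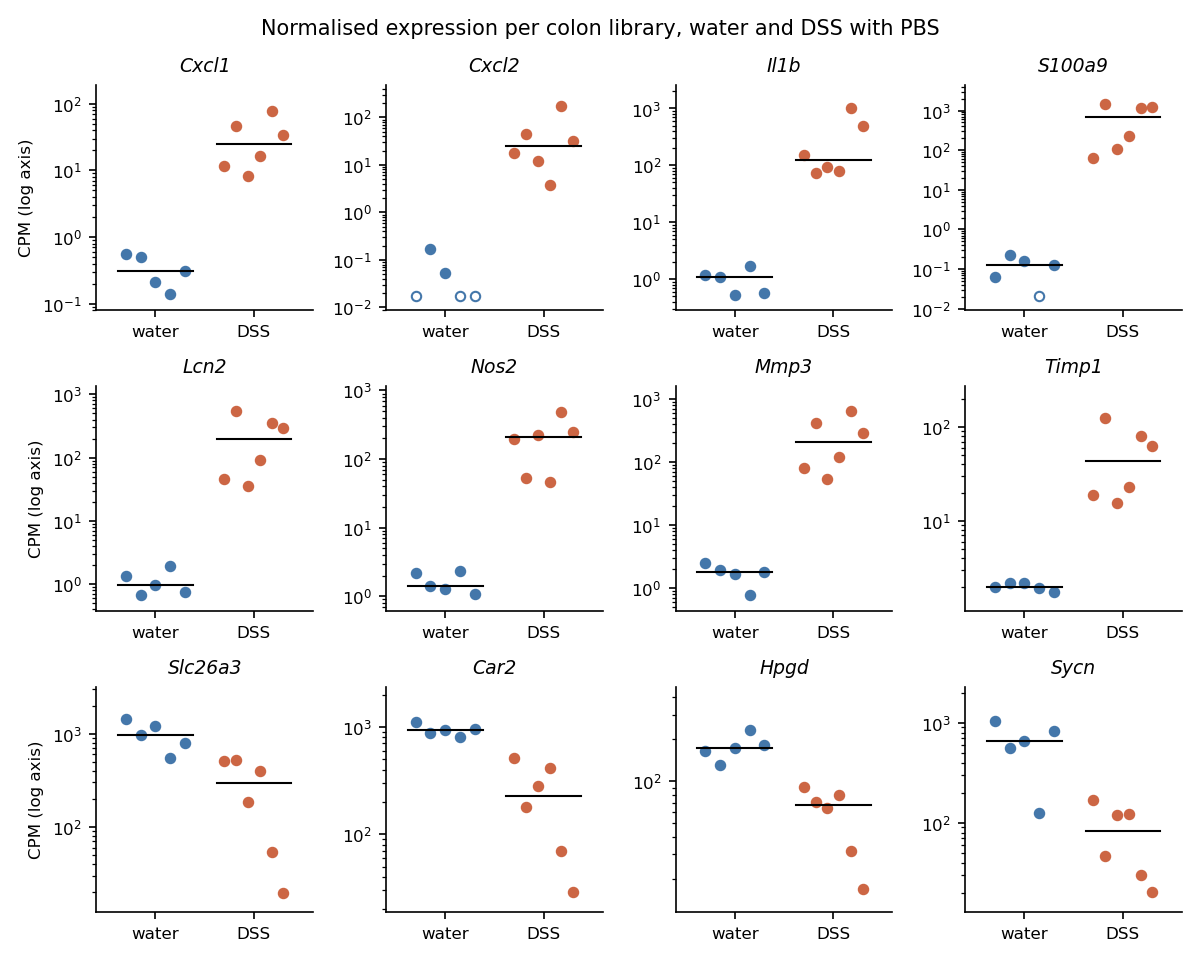
Normalised expression (CPM, log axis) of 12 genes in the 5 water and 6 DSS libraries. Each point is a library, bars are group medians and an open point marks 0. In the 8 genes of the first 2 rows every DSS library lies above every water library, and in Slc26a3, Car2 and Hpgd every DSS library lies below.

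Neutrophil genes formed the list with the highest median among those with at least 10 tested genes, at 7.22, with 19 of 20 tested members higher and 18 without overlap. S100a9 (Entrez gene ID 20202, chr3:90692630-90695721), a subunit of the calprotectin that neutrophils carry in bulk, read 0.0617, 0.225, 0.16, 0 and 0.125 CPM in water colon and from 62.7 to 1444 CPM (median 683) in DSS colon. Its lowest DSS library was thus far above its highest water library (log2 fold change 12.43 ± 1.35 (SE), adjusted p = 9.33e-07). S100a8, the other subunit, rose too (12 ± 1.39, adjusted p = 1.32e-06). Mmp8, neutrophil collagenase, had 2 water counts and 8185 in DSS (3379-fold, 95% counting interval 935 to 27908). Granule genes that neutrophils transcribe while still immature were high in single libraries: Ngp reached 577 CPM in DSS 2 against 1.27 to 82.7 CPM in the others, and Ltf 1380.3 CPM in DSS 6 against 6.11 to 174 CPM. The receptors Csf3r and Cxcr2 rose by 6.18 and 4.33. Ly6g, the surface marker by which neutrophils are usually sorted, did not pass (log2 fold change 0.85 ± 0.546 (SE), adjusted p = 0.244). It stood at 45 to 77.8 CPM in 4 water libraries, 0.566 CPM in water 4 and 43.3 to 179 CPM in DSS colon, and its counts were mostly not whole. In such bulk tissue, more cells of a type and more RNA per cell cannot be told apart.

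Monocyte and macrophage genes were higher in 16 of 18 cases (median 2.09). Inflammatory members rose most: Chil3, a chitinase-like protein (log2 fold change 11.06 ± 1.77 (SE), adjusted p = 4.67e-05), Spp1, encoding osteopontin (6.90 ± 0.974, adjusted p = 1.05e-05), and Arg1, arginase (6.73 ± 1.37, adjusted p = 0.000625). Chil3 reached 639.5 CPM in DSS library 2 against 3.57 to 31.5 CPM in the others, and Arg1 442 CPM in DSS 6 against 4.72 to 57.6 CPM. General macrophage genes rose less, Adgre1 by 1.94, Cd68 by 1.89 and C1qa by 1.60. Mrc1, a mannose receptor of resident macrophages, did not pass (0.91 ± 0.439, adjusted p = 0.117). Chemokines for monocytes and lymphocytes were higher in 16 of 21 cases and lower in 2, the lower count being 0 without water 2 or DSS 2 or 6 and 1 without water 1, 3 or 4 or DSS 5. Ccl2, which attracts monocytes, rose (5.17 ± 0.612, adjusted p = 1.56e-06). Ccl3 had 2 counts in water and 1558 in DSS colon (643-fold, 95% counting interval 178 to 5316), and Ccl4 had 3 and 1341 (369-fold, 95% counting interval 126 to 1792). The 2 that fell were epithelial Ccl28 (−0.85 ± 0.313, adjusted p = 0.0388) and Ccl25, which homes lymphocytes to the small intestine (−0.98 ± 0.345, adjusted p = 0.0309). Ccl28 lost its call without water 1, 2, 3 or 5 or DSS 2, 5 or 6 (adjusted p = 0.06 to 0.0942), and Ccl25 without water 2 or 4 or DSS 2 or 6 (adjusted p = 0.0568 to 0.176).

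Secreted defence proteins split by protein. Of 16 tested antimicrobial genes of the epithelium, 6 were higher, 2 lower and 8 did not pass. Without water 4, 9 were higher and 4 lower. Lcn2 (Entrez gene ID 16819, chr2:32384637-32387739), which binds bacterial iron carriers, stood at 1.36, 0.676, 0.961, 1.91 and 0.749 CPM in water colon and from 35.3 to 548 CPM (median 193) in DSS colon (log2 fold change 7.67 ± 0.806 (SE), adjusted p = 9.16e-07). Saa3, an acute phase protein, rose with 0.394 to 1.77 CPM in water and 69.9 to 926 CPM in DSS colon, though its counts were shared with related genes (9.25 ± 1.1, adjusted p = 1.75e-06). Slpi, an inhibitor of neutrophil elastase, rose with 4.37 to 10 CPM in water and 112 to 644 CPM in DSS colon (5.41 ± 0.515, adjusted p = 4.78e-07). The lectins Reg3b and Reg3g did not pass over all libraries (log2 fold change 3.85 ± 1.89 (SE), adjusted p = 0.122 and 3.02 ± 1.52, adjusted p = 0.131). Reg3b was at 47.1 CPM in water library 4, 0 to 0.16 CPM in the other 4 and 1.37 to 767 CPM in DSS colon, and without water 4 it passed (log2 fold change 11, adjusted p = 0.00751), as did Reg3g (8.31 and 0.00443). DSS 2 held most of the Reg3b, and without DSS 2 its log2 fold change was −0.33 (adjusted p = 0.893). Wfdc18, a small secreted protein related to Slpi, rose (4.40 ± 0.614, adjusted p = 9.43e-06). RNA of the phospholipase gene Pla2g2a rose as well, with 0.919 to 5.99 CPM in water and 2.95 to 165 CPM in DSS colon (4.04 ± 0.841, adjusted p = 0.000776). Whether these mice make a working enzyme from it was not tested. Itln1 (−7.17 ± 1.42, adjusted p = 0.000452) and Ang4 (−6.46 ± 1.64, adjusted p = 0.00415) fell most among the ranked genes, and their water mean was mostly that of library 4. Without it the values were −2.19 (adjusted p = 0.0421) and −4.42 (adjusted p = 0.0248). Complement and acute phase genes were higher in 13 of 13 cases, 12 without overlap. Haptoglobin (Hp) rose with 0.0624 to 1.48 CPM in water and 26.4 to 454 CPM in DSS colon (log2 fold change 8.65 ± 1 (SE), adjusted p = 1.32e-06), complement C3 with 54.9 to 259.8 CPM in water and 755 to 5529 CPM in DSS colon (3.65 ± 0.589, adjusted p = 5.11e-05), and Lrg1 and Serpina3n by 5.74 and 4.93.

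Several enzymes of reactive oxygen, nitric oxide and prostaglandins changed. Of 13 tested genes of the NADPH oxidases, DUOX and NOS2, 9 were higher and 0 lower. Nos2 (Entrez gene ID 18126, chr11:78920787-78960226), inducible nitric oxide synthase, stood at 2.16, 1.41, 1.28, 2.33 and 1.06 CPM in water colon and from 45.7 to 482 CPM (median 213) in DSS colon (log2 fold change 6.99 ± 0.957 (SE), adjusted p = 7.6e-06). Duoxa2, the maturation factor of the epithelial oxidase DUOX2, rose with 5.29 to 12 CPM in water and 24.7 to 98 CPM in DSS colon (2.63 ± 0.343, adjusted p = 4.2e-06), and Duox2 itself by 1.32. Subunits of the phagocyte oxidase rose, Cybb by 2.99 and Ncf1 by 2.99. Of 17 tested genes of prostaglandins and leukotrienes, 5 were higher and 2 lower, the count of higher genes being 3 without water 1, 2 or 3 or DSS 6. Ptgs2 (COX-2), which makes prostaglandins, rose with 3.99 to 10.9 CPM in water and 30.2 to 561 CPM in DSS colon (log2 fold change 4.37 ± 0.685 (SE), adjusted p = 3.68e-05). Hpgd (Entrez gene ID 15446, chr8:56294552-56321046), which breaks prostaglandin E2 down, read 166, 129.9, 173, 233 and 182 CPM in water and from 17.1 to 91 CPM (median 68) in DSS colon, lower in every DSS library (−1.57 ± 0.276, adjusted p = 0.00013). The receptor gene Ptger2 did not pass (0.44 ± 0.25, adjusted p = 0.184).

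Cytokine genes of the interleukin-36, interleukin-12 and interleukin-17 axes were low in counts. Per the sample titles, the study's antibodies were against the interleukin-36 receptor and the p40 chain of interleukin 12. Il1rl2 (Entrez gene ID 107527, chr1:40324589-40367555), the mouse gene of the interleukin-36 receptor, read 0.309, 0.394, 0.374, 0.778 and 0.125 CPM in water and from 0.637 to 3.41 CPM (median 1.32) in DSS colon. DSS libraries 5 and 6 were highest, DSS 1 lay within the water range, and the difference passed (log2 fold change 2.16 ± 0.508 (SE), adjusted p = 0.00226). Of the ligands, Il36a and Il36b had 0 counts in the 11 libraries, and Il1f9, encoding interleukin-36 gamma, stood at 0.901 to 1.66 CPM in water and 0.651 to 1.25 CPM in DSS colon (−0.41 ± 0.284, adjusted p = 0.286). Reads from human forms of these genes, if the mice carry them, were not counted separately. Of 17 tested genes of interleukins 12, 23 and 17, 12 were higher and 3 lower. Il12b, the p40 chain shared by interleukins 12 and 23, rose with 0.0617 to 0.212 CPM in water and 0.119 to 3.18 CPM in DSS colon (3.82 ± 0.68, adjusted p = 0.000152). Il17a had 1 count in water colon and 234 in DSS colon (193-fold, 95% counting interval 34.3 to 7664), at 1.91, 0.119, 0.361, 0.538, 8.22 and 2.73 CPM in DSS libraries 1 to 6. Il22 had 2 and 68 counts (28.1-fold, 95% counting interval 7.48 to 237), and Ifng 2 and 222 (91.7-fold, 95% counting interval 25.1 to 762), with none in DSS libraries 2 and 4. The lower members included Il22ra1, the epithelial receptor chain for interleukin 22, with 72.2 to 125 CPM in water and 36.3 to 89.7 CPM in DSS colon (−0.61 ± 0.185, adjusted p = 0.0134), and Il17rc, a receptor chain for interleukin 17, with 55.5 to 79.2 CPM in water and 25.6 to 64.7 CPM in DSS colon (−0.45 ± 0.169, adjusted p = 0.043). Il17rc lost its call without water 2, 3 or 5 or DSS 5 or 6 (adjusted p = 0.0533 to 0.13).

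Antigen presentation rose in 5 of the 6 DSS libraries. Of 20 interferon gamma and antigen presentation genes, 19 were higher (median 2.13), but only 6 without overlap. H2-Aa (Entrez gene ID 14960, chr17:34282744-34287823), a chain of MHC class II, stood at 114, 131, 69.3, 110.4 and 101 CPM in water colon and at 724, 33.4, 949.6, 355, 276 and 947 CPM in DSS libraries 1 to 6. DSS 2 was below every water library and the other 5 above (log2 fold change 2.38 ± 0.546 (SE), adjusted p = 0.00185). Ciita, the switch of MHC class II transcription, had the same shape, with 4.24 CPM in DSS 2 and 54 to 102 CPM in the others against 8.6 to 16.3 CPM in water (2.42 ± 0.469, adjusted p = 0.000385). Iigp1, a GTPase induced by interferon gamma, rose even in DSS 2 (12.3 CPM against 4.7 to 7.49 CPM in water, 4.21 ± 0.835, adjusted p = 0.000477). Cxcl9 and Cxcl10, chemokines of the interferon response, rose by 5.94 and 4.94. Genes of the type I interferon response were higher in 12 of 19 cases, and in 15 without water library 4. Isg15, whose window is printed above, read 1.91, 1.91, 4.43, 11.5 and 9.05 CPM in water and from 3.04 to 48.3 CPM (median 22.6) in DSS colon, with overlap (2.18 ± 0.685, adjusted p = 0.0174). Irf7 (0.38 ± 0.355, adjusted p = 0.434) and Oasl1 (0.41 ± 0.313, adjusted p = 0.331) did not pass.

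T, NK and B cell genes lay above their water levels in every DSS library except 2. Of 20 T and NK cell markers, 19 were higher (median 2.43), 5 without overlap. Cd3e, a chain of the T cell receptor complex, was at 1.07 to 1.97 CPM in water, 0.716 CPM in DSS 2 and 5.8 to 14.8 CPM in the other DSS libraries (log2 fold change 2.20 ± 0.442 (SE), adjusted p = 0.000537). Foxp3, the factor of regulatory T cells, rose in all 6, with 0.32 to 0.848 CPM in water and 1.25 to 11.5 CPM in DSS colon (3.62 ± 0.456, adjusted p = 2.87e-06), as did the checkpoint receptor Ctla4 (4.18 ± 0.559, adjusted p = 5.78e-06). Gzmb, a cytotoxic granule protease, rose by 4.67. B cell, plasma cell and follicle genes were higher in 14 of 16 cases. Jchain (Entrez gene ID 16069, chr5:88519809-88527897), which joins secreted IgA and IgM, read 399, 359, 93.7, 666 and 154 CPM in water and from 1166 to 5710.4 CPM (median 2040.0) in DSS colon, above every water library (2.92 ± 0.676, adjusted p = 0.00197), and Mzb1, a plasma cell chaperone, rose by 3.72. Cr2, a follicular receptor, was at 1.01 CPM in DSS 2 and 37.6 to 77 CPM in the others (1.93 ± 0.594, adjusted p = 0.0154). Adjusted p for Cr2 was 0.0662 without water 4 and DSS 6. Mast cell genes rose as well: the proteases Mcpt1 (log2 fold change 4.16 ± 0.854 (SE), adjusted p = 0.000669) and Mcpt2 (4.29 ± 0.839, adjusted p = 0.00042) and the histamine enzyme Hdc (6.57 ± 0.874, adjusted p = 5.47e-06), which neutrophils also make. In all, 9 of 13 eosinophil and mast cell genes were higher.

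Dendritic cell genes were higher in 7 of 12 cases, with 7 without water 4 and 1 free of overlap. Ccr7, which guides mature dendritic cells and naive T cells to lymph nodes, was at 1.85, 1.86, 0.801, 0.707 and 2.06 CPM in water and 7.45, 0.776, 8.23, 6.1, 11.4 and 20.2 CPM in DSS libraries 1 to 6 (log2 fold change 2.62 ± 0.47 (SE), adjusted p = 0.000167). DSS 2 again lay lowest. Cd86, a costimulatory protein, rose (2.34 ± 0.373, adjusted p = 4.54e-05), as did Flt3, the growth factor receptor of the lineage (1.73 ± 0.305, adjusted p = 0.000141), and Itgax, encoding CD11c (1.60 ± 0.351, adjusted p = 0.00128).

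Most endothelial adhesion and matrix remodelling genes rose. Sele and Selp, selectins on which leukocytes roll, were at 0 to 0.141 CPM and 2.03 to 4.07 CPM in water and 1.98 to 23.3 CPM and 19 to 199 CPM in DSS colon (log2 fold change 7.11 ± 0.949 (SE), adjusted p = 5.67e-06 and 5.13 ± 0.647, adjusted p = 2.87e-06). Madcam1, the address molecule for gut-homing lymphocytes, rose with 1.07 to 3.18 CPM in water and 9.68 to 39.9 CPM in DSS colon (3.25 ± 0.365, adjusted p = 1.1e-06). In all 12 of 13 endothelial genes were higher, 7 without overlap between groups, the exception being Lyve1 of lymphatic vessels (0.37 ± 0.3, adjusted p = 0.369). Of 20 matrix remodelling genes 17 were higher, 12 without overlap. Mmp3 (Entrez gene ID 17392, chr9:7445822-7455975), stromelysin 1, read 2.53, 1.91, 1.66, 0.778 and 1.81 CPM in water and from 54.6 to 659.6 CPM (median 209) in DSS colon (7.28 ± 0.698, adjusted p = 4.78e-07), with counts partly shared with related genes, as for Mmp10 (7.09 ± 0.794, adjusted p = 1.1e-06). Mmp13, a collagenase, reached 403 CPM in DSS 2 (5.68 ± 0.802, adjusted p = 1.04e-05). Their inhibitor Timp1 was at 1.97, 2.2, 2.19, 1.91 and 1.75 CPM in water and from 15.4 to 125 CPM (median 43.1) in DSS colon (4.75 ± 0.574, adjusted p = 2.01e-06).

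Genes of matrix and fibroblasts were prominent among the largest gains in absolute level. Of the 15 genes with the largest gain in mean CPM, 13 had no overlap, and 15 of 15 passed without water 4. Both counts partly follow from the choice of these genes among those that had passed. Col3a1 led with 1160.3 ± 326 CPM (SD, n = 5) in water and 3928 ± 2071 CPM (SD, n = 6) in DSS (log2 fold change 1.76 ± 0.376 (SE), adjusted p = 0.000984). It was followed by Jchain and by Igfbp5, a growth factor binding protein of fibroblasts, with 154 ± 33.6 CPM (SD, n = 5) in water and 2320.2 ± 1806 CPM (SD, n = 6) in DSS (3.92 ± 0.59, adjusted p = 2.24e-05). Col1a1 rose with 219 to 364 CPM in water and 532 to 2099 CPM in DSS colon (2.06 ± 0.377, adjusted p = 0.000212). Fibroblast genes were higher in 15 of 20 cases, by a median of 1.42.

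Hypoxia and glycolysis genes were higher in 7 of 16 cases, a count that was 3 without water 5 and 4 without water 2 or 4. None was lower over all libraries, and the lower count was 1 without water 1, 3 or 5 or DSS 2. Hif1a, the oxygen-regulated factor, rose with 75.6 to 215 CPM in water and 203 to 469 CPM in DSS colon (log2 fold change 1.16 ± 0.258 (SE), adjusted p = 0.00143). Pfkfb3, which sets the pace of glycolysis, had 18, 13.8, 12, 12.8 and 9.61 CPM in water and from 36 to 224 CPM (median 51.7) in DSS colon (2.74 ± 0.408, adjusted p = 1.93e-05). Slc16a3, the lactate exporter of glycolytic cells, went the same way (2.67 ± 0.452, adjusted p = 8.69e-05), opposite to its butyrate-carrying relative Slc16a1 described below. The glucose carrier Slc2a1 did not pass (0.23 ± 0.135, adjusted p = 0.193).

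Genes of epithelial repair were higher in 10 of 18 cases (median 1.15). Ly6a, which marks the fetal-like epithelium of healing colon but also lymphocytes and vessels, rose with 80.2 to 142 CPM in water and 288 to 706 CPM in DSS colon, its counts shared with related genes (log2 fold change 2.16 ± 0.35 (SE), adjusted p = 5.23e-05). Plaur, the urokinase receptor, rose by 2.97. Among ligands of the EGF receptor family, Ereg rose with 7.61 to 17 CPM in water and 34.3 to 256 CPM in DSS colon (3.36 ± 0.545, adjusted p = 5.32e-05), with Epgn (4.41 ± 0.688, adjusted p = 3.46e-05) and the stromal ligand Nrg1 (2.97 ± 0.584, adjusted p = 0.000436), whereas Areg (0.82 ± 0.329, adjusted p = 0.0578) and Tgfa (−0.17 ± 0.113, adjusted p = 0.266) did not pass. Areg passed when single libraries were left out (0.97, adjusted p = 0.0446 without water 1 and 0.91, adjusted p = 0.0424 without DSS 1). Nlrp3, an inflammasome sensor of myeloid cells, rose (5.02 ± 0.666, adjusted p = 5.32e-06). The epithelial gasdermin C genes fell: Gsdmc3 was at 238, 252, 277, 145 and 471 CPM in water and from 9.09 to 113 CPM (median 29.9) in DSS colon, with counts shared among the family (−2.58 ± 0.478, adjusted p = 0.000235), and Gsdmc, Gsdmc2 and Gsdmc4 had log2 fold changes of −2.11, −1.98 and −1.82.

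The falls were smaller and depended more on water library 4. Of the 15 genes with the largest fall, 5 had no overlap and 9 still passed without that library. Abca12, Fabp2, Osr2, Ugt1a1, Cyp2c65 and Slc13a1 no longer passed. Abca12, a lipid transporter, was at 71.8 CPM in water 4 and 0 in the other 4, and its log2 fold change went from −4.79 to 6.13 (adjusted p = 0.131). The direction of Slc13a1, a sulfate transporter, also turned (from −3.01 to 1.84, adjusted p = 0.0847), as did that of Osr2 (from −3.21 to 0.57, adjusted p = 0.56). For Fabp2, a fatty acid carrier, Ugt1a1 and Cyp2c65 adjusted p without it was 0.921, 0.615 and 0.994. Other single libraries also ended calls. Abca12 lost its call without water 4 or DSS 1, 2, 3, 4 or 5 (adjusted p = 0.0556 to 0.131), Slc13a1 without water 4 or DSS 2, 5 or 6 (adjusted p = 0.0608 to 0.0847) and Fabp2 without water 4 or DSS 5 (adjusted p = 0.921 and 0.0518). Mptx2, a Paneth cell pentraxin, fell with and without it (−5.69 ± 1.39, adjusted p = 0.00312).

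**Figure D4:**
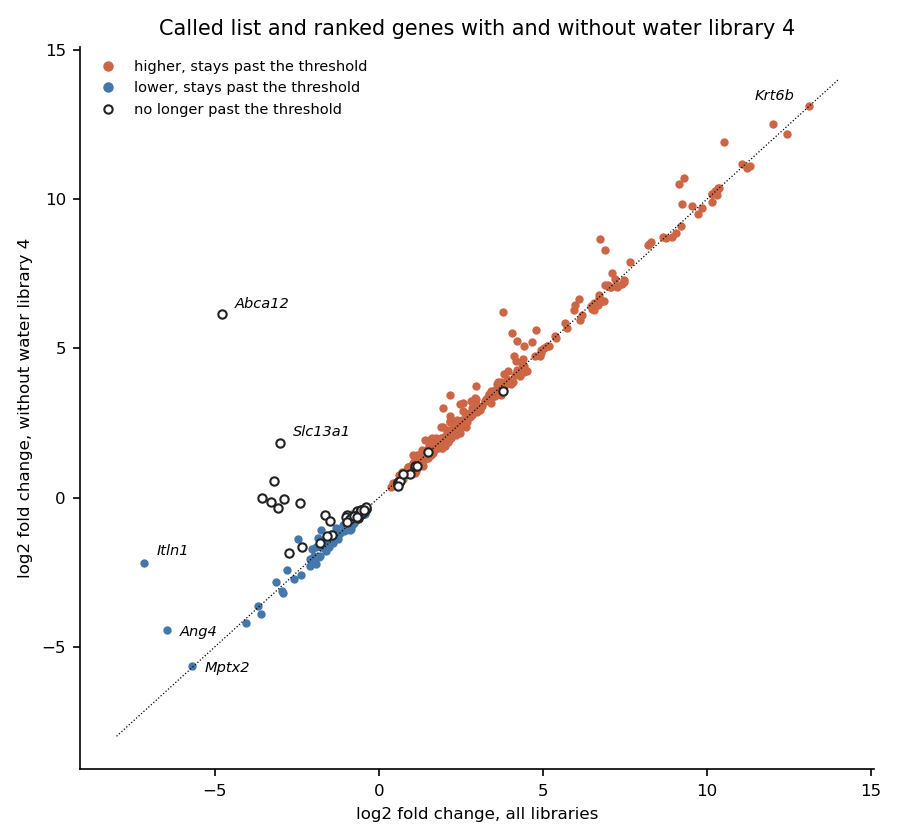
Log2 fold changes (DSS against water) of list and ranked genes that passed the test, over all libraries (horizontal axis) and without water library 4 (vertical axis), with equality dotted. Open points no longer passed without that library. Rises lie along the line, while Abca12 and Slc13a1 turn from a fall to a rise and Itln1 moves from −7.17 to −2.19.

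Other large falls held without water library 4. Sycn (Entrez gene ID 68416, chr7:28540885-28542210), syncollin, a granule membrane protein best known from the pancreas, read 1055, 566, 655, 125 and 823 CPM in water and from 20.1 to 167 CPM (median 83.1) in DSS colon. Only water 4 lay within the DSS range (log2 fold change −2.93 ± 0.527 (SE), adjusted p = 0.000175). The pancreas genes Cpa1, Cela2a, Ctrb1 and Pnlip were below the count filter. Slc37a2, a sugar phosphate transporter, read 652, 465, 951, 2.4 and 289 CPM in water and from 11.5 to 72.5 CPM (median 35.8) in DSS colon (−3.59 ± 0.79, adjusted p = 0.00126). Water 4 lay below all 6 DSS libraries, and the other 4 water libraries lay above them. Slc30a10, which exports manganese, read 41.7, 39.8, 21.7, 17.7 and 33 CPM in water and 9.04, 0.597, 1.32, 0.0598, 0.178 and 0 CPM in DSS libraries 1 to 6 (−4.06 ± 0.971, adjusted p = 0.00262). With DSS 1, the highest of them, left out the log2 fold change was −6.14, adjusted p = 4.89e-05. Retnla, a resistin-like protein of type 2 immunity, fell with 4.06 to 16.8 CPM in water and 0.179 to 1.8 CPM in DSS colon (−3.68 ± 0.842, adjusted p = 0.00179). P2ry4, a nucleotide receptor on epithelium, fell with 3.61 to 15 CPM in water and 0.0597 to 2.55 CPM in DSS colon (−2.95 ± 0.595, adjusted p = 0.000558). Sh2d7, an adaptor gene, fell as well (−3.13 ± 0.826, adjusted p = 0.00557), as did Trpm5, the taste channel of tuft cells, with 6.67 to 20.5 CPM in water and 0.0592 to 3.94 CPM in DSS colon (−2.81 ± 0.779, adjusted p = 0.00787). Of 5 tested tuft cell genes 3 were lower, and 1 was without water 4.

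Absorption genes of the colonocyte were lower in part, with their lowest levels in DSS libraries 5 and 6. Of 27 tested genes of ion and water transport, 11 were lower and none higher (median −0.91). Slc26a3 (Entrez gene ID 13487, chr12:31433142-31473922), the chloride and bicarbonate exchanger of the surface epithelium, read 1435, 967, 1197, 542 and 799 CPM in water and 507, 523, 186, 398, 53.6 and 19.5 CPM in DSS libraries 1 to 6. All DSS libraries were lower, 5 and 6 by far (log2 fold change −1.81 ± 0.563 (SE), adjusted p = 0.0163). In a fit of the 11 libraries alone its adjusted p was 0.0881. Car2, cytosolic carbonic anhydrase, read 1100.1, 885, 944, 802 and 963 CPM in water and from 29.2 to 508 CPM (median 229) in DSS colon, without overlap (−1.93 ± 0.441, adjusted p = 0.00174), and membrane-bound Car4 was lower too (−1.62 ± 0.567, adjusted p = 0.0306). Car4 lost its call without water 1 or 3 or DSS 5 (adjusted p = 0.0788, 0.0633 and 0.0667). Car1 passed over all libraries (−2.33 ± 0.711, adjusted p = 0.0146), where water 4 was highest at 3063 CPM, and did not without it (adjusted p = 0.0694). Cftr, the chloride channel of crypts, fell with 150.3 to 179 CPM in water and 14.9 to 143 CPM in DSS colon (−1.20 ± 0.329, adjusted p = 0.00713), and Slc16a1, the butyrate carrier, with 282 to 508 CPM in water and 127 to 281 CPM in DSS colon (−0.91 ± 0.196, adjusted p = 0.00108). The sodium channel subunit Scnn1g (−1.08 ± 0.758, adjusted p = 0.289) and the water channel Aqp8 (−1.52 ± 0.608, adjusted p = 0.0577) did not pass, though Aqp8 did when single libraries were left out (−1.96, adjusted p = 0.0172 without DSS 1 and −1.83, adjusted p = 0.031 without DSS 4).

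Detoxification genes had the lowest median of the lists, −1.38, with 18 of 24 tested members lower and 11 without overlap. Without water library 4, 12 were lower and 1 higher. Sult1a1 (Entrez gene ID 20887, chr7:126672865-126690443), which sulfates phenols, read 308, 269.5, 291, 397 and 420.0 CPM in water and from 17 to 143 CPM (median 83.1) in DSS colon (log2 fold change −2.12 ± 0.398 (SE), adjusted p = 0.000273). Ces2a, a carboxylesterase (−2.04 ± 0.41, adjusted p = 0.000543), and Aldh1a1, which makes retinoic acid (−2.48 ± 0.465, adjusted p = 0.00026), fell, with counts shared among relatives. Aldh1a1 was at 376 CPM in water 4, and its log2 fold change without it was −1.40 (adjusted p = 0.00182). Abcb1a, the drug efflux pump, fell with 446 to 996 CPM in water and 71.4 to 373 CPM in DSS colon (−1.76 ± 0.313, adjusted p = 0.000151). Nr1i2, the receptor PXR that induces such genes, fell less (−0.75 ± 0.239, adjusted p = 0.0183). Cyp2c55 (−2.76 ± 0.824, adjusted p = 0.0129) passed with water 4 included and lost its call without it (−1.85, adjusted p = 0.0757).

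Fatty acid oxidation genes were lower in 17 of 22 cases, 11 without overlap, and 13 were lower without water 4. Ppara, the receptor that induces them, read 23.5, 20, 23, 70.3 and 27.1 CPM in water and from 3.75 to 15.6 CPM (median 8.42) in DSS colon (log2 fold change −1.85 ± 0.331 (SE), adjusted p = 0.000162). Its coactivator Ppargc1a fell with 45.1 to 105 CPM in water and 7.61 to 39.1 CPM in DSS colon (−1.51 ± 0.32, adjusted p = 0.000888). Acadm, a medium-chain acyl-CoA dehydrogenase, fell with 153 to 178 CPM in water and 57.8 to 106 CPM in DSS colon with little spread in either group (−0.92 ± 0.168, adjusted p = 0.000199). Angptl4, an inhibitor of lipoprotein lipase, was the 1 member that rose (3.33 ± 0.63, adjusted p = 0.000291). Nuclear genes of the respiratory chain were lower in 15 of 22 cases, with a median log2 fold change of −0.45. That count was 4 without DSS 5 or 6, 5 without water 5 and 9 without water 4, and 2 without water 4 and DSS 6 together. Sdha, a subunit of complex II, fell with 405 to 427 CPM in water and 208 to 379.7 CPM in DSS colon (−0.48 ± 0.119, adjusted p = 0.00354). Transcripts of the mitochondrial genome made up 9 of the 15 largest losses in mean CPM, with COX1 first (log2 fold change −0.73 ± 0.238 (SE), adjusted p = 0.0205). COX1 ranged over 19261 to 43659 CPM in water and 10230.0 to 20794 CPM in DSS colon, and lost its call without water 5 or DSS 5 (adjusted p = 0.102 and 0.054) and without water 4 and DSS 6 together (adjusted p = 0.0914).

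Brush border genes were lower in 7 of 19 cases, a count that was 3 without DSS 5, 4 without water 1, 3 or 4 or DSS 6 and 11 without DSS 1. Mep1a, a brush border protease, fell with 171 to 453 CPM in water and 22.4 to 159.6 CPM in DSS colon without overlap (log2 fold change −1.91 ± 0.398 (SE), adjusted p = 0.000774). The enterocyte regulators Hnf4g (−1.27 ± 0.22, adjusted p = 0.000109) and Hnf4a (−0.69 ± 0.236, adjusted p = 0.028) fell, and Hnf4a lost its call without water 1 or 3 or DSS 5 (adjusted p = 0.0585, 0.0534 and 0.0748). Vil1 (−0.31 ± 0.212, adjusted p = 0.27) and Cdx2 (−0.60 ± 0.656, adjusted p = 0.516) did not pass. Without water 4 the log2 fold change of Cdx2 turned to 0.44 (adjusted p = 0.633). Of 17 tight junction genes 5 were lower, and 2 without DSS 5 and 3 without DSS 6. Ocln, occludin, fell with 98.8 to 152 CPM in water and 28 to 90.9 CPM in DSS colon (−1.02 ± 0.203, adjusted p = 0.000499) as did Cgn, cingulin (−0.60 ± 0.191, adjusted p = 0.0189), which lost its call without DSS 5 (adjusted p = 0.0524). The claudins Cldn2 (−0.68 ± 0.425, adjusted p = 0.23), Cldn3 (−0.51 ± 0.312, adjusted p = 0.222) and Cldn4 (0.77 ± 0.349, adjusted p = 0.0945) did not pass. Cldn4 passed when DSS 1 was left out (0.92, adjusted p = 0.0464). Stem cell and Wnt target genes were lower in 6 of 16 cases and higher in 1, the lower count being 3 without water 5 or DSS 5 or 6 and the higher count 2 without water 1, 2, 3 or 5 or DSS 3 or 4 and 3 without water 4. Axin2, a direct Wnt target, fell with 34.2 to 47.1 CPM in water and 10.1 to 30.4 CPM in DSS colon (−1.0 ± 0.25, adjusted p = 0.00379), and Tnfrsf19, a crypt receptor, with 6.05 to 15.6 CPM in water and 0.776 to 5.68 CPM in DSS colon (−1.67 ± 0.373, adjusted p = 0.00146). Lgr5, the stem cell receptor, read 14.1, 9.69, 10.4, 12.2 and 8.49 CPM in water and 10.6, 0.119, 4.03, 1.43, 0.533 and 1.14 CPM in DSS libraries 1 to 6 and did not pass (−1.89 ± 0.863, adjusted p = 0.0958). With DSS 1, the highest of them, left out it passed (−2.92, adjusted p = 0.0135). Cd44, which leukocytes also carry, rose (1.05 ± 0.285, adjusted p = 0.00678).

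Some smooth muscle and clock genes fell moderately. Of 14 smooth muscle markers 7 were lower. The lower count was 5 without water 4, which had their highest mean level, 2 without water 4 and DSS 2 together, 4 without water 4 and DSS 6 together and 3 without the 3 libraries low in Hoxd13. The markers that fell over all libraries included Mylk, myosin light chain kinase (log2 fold change −0.98 ± 0.205 (SE), adjusted p = 0.000773), and Synm, synemin (−1.08 ± 0.229, adjusted p = 0.000897). Synm read 369.5, 465, 411, 615 and 293 CPM in water and from 137 to 274 CPM (median 188) in DSS colon, without overlap. Myh11, smooth muscle myosin, fell over all libraries (−0.91 ± 0.263, adjusted p = 0.01). It lost its call without water 4 and DSS 2 together (−0.55, adjusted p = 0.0907), without water 4 and DSS 6 together (−0.72, adjusted p = 0.05) and without the 3 libraries low in Hoxd13 (−0.64, adjusted p = 0.0846). Des (−0.50 ± 0.254, adjusted p = 0.136) and Tagln (−0.43 ± 0.193, adjusted p = 0.0896) did not pass. Arntl, a core activator of the circadian clock, fell with 63 to 91.3 CPM in water and 23.8 to 55.3 CPM in DSS colon (−1.06 ± 0.167, adjusted p = 3.8e-05) and Npas2, its partner, with 61 to 75.4 CPM in water and 17.4 to 43 CPM in DSS colon (−1.06 ± 0.162, adjusted p = 2.75e-05). Of the 14 clock genes 4 were lower, Arntl and Npas2 included, and 2 higher, and Per2 (−0.30 ± 0.221, adjusted p = 0.309) did not pass. The higher count was 1 without water 1, 2, 3, 4 or 5 or DSS 2, 3 or 6. The hour at which tissue was taken is not given in the sources used here.

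Goblet cell, cell cycle, enteroendocrine and neuronal genes showed few calls, near or below the background share. Of 19 goblet cell genes, 1 was higher and 1 lower. The higher count was 0 without water 1, 2, 3 or 4 or DSS 1, 2, 3 or 4. The lower count was 0 without DSS 2, 5 or 6, 2 without water 1, 2, 3 or 5 or DSS 4, 3 without DSS 3 and 5 without DSS 1, and 6 without the 3 libraries low in Hoxd13. Muc2, the gel-forming mucin, ranged over 2503 to 4103 CPM in 4 water libraries and 1656 to 12832 CPM in DSS colon (−0.93 ± 0.654, adjusted p = 0.287), and its direction turned without water 4 (log2 fold change 0.87, adjusted p = 0.192). Clca1, a mucus-processing protease, passed (−1.44 ± 0.487, adjusted p = 0.0262) and lost its call without water 4 or DSS 2, 5 or 6 (adjusted p = 0.0508 to 0.0649). Zg16, a mucus lectin, was at 1878 to 2329 CPM in water and 2816, 1133, 1798, 1845, 477 and 262 CPM in DSS libraries 1 to 6 (−0.57 ± 0.387, adjusted p = 0.268). It was lowest in libraries 5 and 6. Of 21 cell cycle genes 2 were higher, Ccnb1 (0.61 ± 0.229, adjusted p = 0.0441) and Cdc20 (0.58 ± 0.201, adjusted p = 0.0301), which act in mitosis. Ccnb1 lost its call without water 1, 2, 4 or 5 or DSS 2 or 5 (adjusted p = 0.0569 to 0.105), and Cdc20 without water 1, 2 or 4 or DSS 2 or 5 (adjusted p = 0.0531 to 0.0857). Mki67, the proliferation marker, stood at 185, 252, 325, 159 and 242 CPM in water and from 195 to 318 CPM (median 272) in DSS colon (0.20 ± 0.215, adjusted p = 0.521). Of 12 enteroendocrine genes 1 was lower and none higher. The lower count was 0 without water 2, 3 or 4 or DSS 5 or 6 and 2 without DSS 1, 3 or 4, and the higher count was 1 without DSS 6 and 2 without water 4. Of 15 neuron and glia genes the neuropeptide gene Vip rose (1.03 ± 0.252, adjusted p = 0.00318) and S100b fell (−0.87 ± 0.334, adjusted p = 0.0481), losing its call without water 1, 4 or 5 or DSS 1, 2, 3, 4 or 5 (adjusted p = 0.0663 to 0.118). Unfolded protein response genes were higher in 3 of 14 cases, among them Xbp1 (1.04 ± 0.205, adjusted p = 0.00045), a factor that plasma cells use heavily. None of 10 adipocyte and 4 erythrocyte genes passed over all libraries, but their levels varied widely within groups. The mean over the adipocyte genes ranged from −0.49 (water 5) to 5.07 log2 CPM (water 1) in water colon. In DSS colon it ranged from 0.48 (DSS 1) to 3.65 (DSS 6). For the erythrocyte genes it ranged from 0.78 to 2.645 in water and −1.66 to 4.29 in DSS colon. Adipocyte genes lower were 1 without water 3 or 5 or DSS 3, and erythrocyte genes higher were 2 without DSS 2.

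The 6 DSS libraries differed in strength. Of the 2765 genes that rose, 1436 were highest in DSS library 6, 731 in 5, 387 in 2, 96 in 3, 67 in 1 and 48 in 4. Of the 2308 that fell, 1199 were lowest in library 6, 496 in 2 and 367 in 5. Libraries 5 and 6 thus held the highest chemokine and complement levels together with the lowest levels of Slc26a3, Car2 and Zg16. Library 2 had high Ngp, Chil3, Mmp13 and Reg3b, with Cd3e, H2-Aa and Cr2 below every other DSS library. Libraries 1, 3 and 4 were the mildest for S100a9, at 62.7 CPM, 109 CPM and 223 CPM against 1142 to 1444 CPM in the others. Without DSS 6, 2370 genes were higher and 1620 lower, and without DSS 2, 2810 and 2516.

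**Figure D5:**
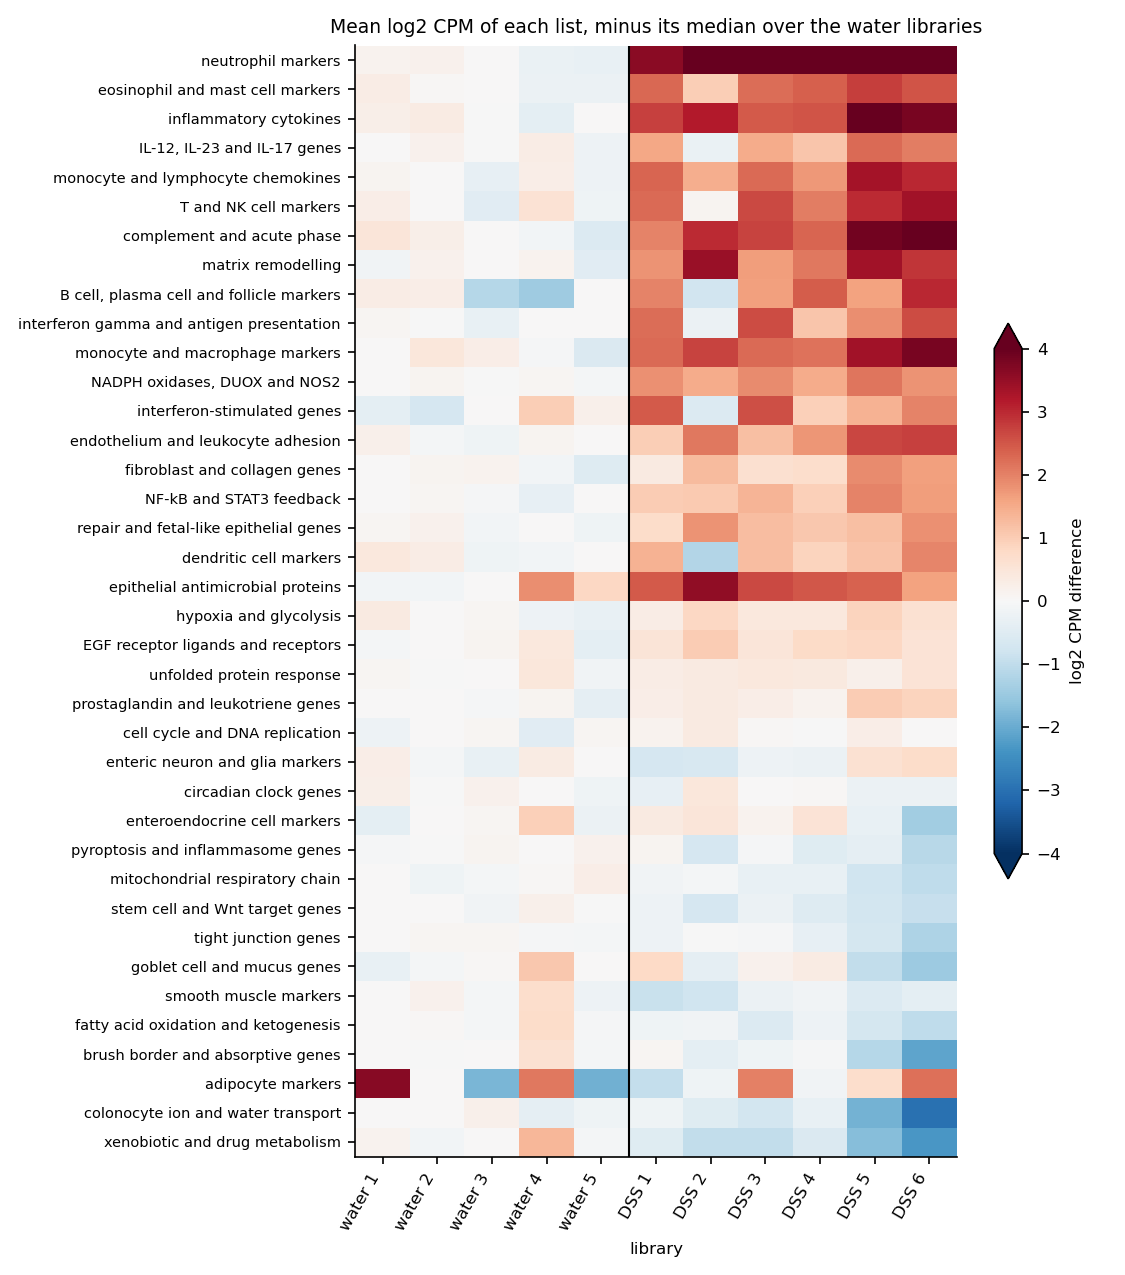
Mean log2 CPM of the tested members of each gene list in each library, minus the median of the list over the 5 water libraries (colour, saturating at 4 log2 units). DSS 2 lacks the rise of the lymphocyte, dendritic cell and antigen presentation lists, and DSS 5 and 6 are lowest in ion transport and xenobiotic metabolism.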

How the data were processed

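RNA of colon tissue was sequenced as strand-specific libraries of poly(A) RNA, per the labels' protocols. The deposited table holds expected counts per Entrez gene, estimated read numbers that need not be whole (17.33% of the colon values were not), with 1 column per library and no scaling for depth. The authors made them with RSEM on the mm10 build, per the submitters' processing notes, and the version and annotation are not given in the sources used here. Reads shared between similar genes are divided among them in such counts, so genes of near-identical families are uncertain. Of 24475 gene IDs, 24375 matched a RefSeq table of GRCm38.p6, the assembly behind mm10, from which symbols, coordinates and promoter windows were taken. No colon column was left out.

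After rounding, these counts went into edgeR 4.0.16 (R 4.3.3) with filterByExpr by group, TMM factors and the quasi-likelihood F test over all 26 colon libraries in 1 fit of 4 groups, so that the spread was shared, with Benjamini-Hochberg adjusted p under 0.05. Groups came from the sample titles. A standard error is the size of the log2 fold change divided by the root of its F statistic. CPM are counts scaled to library size with TMM factors, and log2 CPM used a prior count of 2. Folds against 0 counts in water use a floor of 3 counts over the group, with depth taken into account. Exact 95% intervals of count ratios cover counting error only. Library totals were 15506404 to 18663357 counts.

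Named genes were the 15 largest rises and the 15 largest falls by log2 fold change among called genes whose log2 fold change was 1 or more in size and whose mean was 1 log2 CPM or more, the 15 largest gains and the 15 largest losses in mean CPM, and members of 47 gene lists (740 entries, 683 genes tested). The ranked sets skip predicted, clone-named, pseudogene and sex-linked genes. The comparison, members and lists were chosen with earlier results of these data known. List entries Muc3, Sh2d6 and Prac1 matched no row, and some list members are counted but not reported by name here.

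On counts simulated for 15731 genes, the procedure recovered 67% of genes changed 2-fold and 95% of those changed 4-fold, and 4.71% of its calls were false. Genes were drawn independently, with 100 changed at each fold and no library that stood apart. These shares may therefore not hold for the data. Alternatives were DESeq2 size factors, no filter, a filter of 1 CPM in 5 libraries, DESeq2 1.42.0, limma 3.58.1 voom with sample weights, the 11 libraries alone, each library left out, and a test against an absolute log2 fold change of 1. Leaving out water 4 with DSS 2, water 4 with DSS 6, or the 3 libraries low in Hoxd13 was added after seeing the data. Figures were drawn with matplotlib 3.10.9. Skin libraries and the antibody groups of colon were not compared here.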

Additional observations from a re-analysis of the deposited data

Results flagged for a closer look

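For each named gene, the highest and the lowest library of each group were compared with their nearest neighbour by Dixon's ratio on log2 CPM. Of 408 pairs of gene and group, 44 (10.8%) held a library beyond the 95% critical value. No chance level is given for this share, because the named genes were chosen from these data and are not independent. Genes with a single count in the whole water group, such as Csf3, Cxcl3, Il17a, Clec4e and Krt90, are flagged whatever their spread. Water library 4 accounted for 28 of them, other water libraries for 7, DSS library 2 for 5 and DSS library 6 for 4.

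Water 4 was the highest water library, by that measure, for genes of lipid and drug handling: Abca12 at 71.8 CPM, Aldh1a1 at 376 CPM, Cyp2c65 at 168 CPM, Ugt1a1 at 160.3 CPM, Ppara at 70.3 CPM and Slc13a1 at 34 CPM. The same held for Muc2 at 46428 CPM, the claudin gene Cldn2 at 204 CPM, Osr2 at 44.1 CPM, Reg3b at 47.1 CPM and Reg3g at 27.1 CPM, and for the smooth muscle genes Des at 1654 CPM and Mylk at 1602 CPM. It was also highest for the low genes Arg1 at 3.68 CPM and Saa3 at 1.77 CPM, and for Csf3, Cxcl3 and Il17a, each at 0.0707 CPM, a single count. Water 4 was the lowest water library for Hoxd13 at 0.212 CPM, Hoxb13 at 1.84 CPM, Slc37a2 at 2.40 CPM, Ly6g at 0.566 CPM, Ccl28 at 76.4 CPM, Il18 at 33.4 CPM, Il1rn at 13.9 CPM, Il34 at 4.60 CPM, Nr1i2 at 57.7 CPM and Tnip1 at 72.1 CPM.

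In other water libraries the values were 0 for Chil3 in water 1, 0.0563 CPM for Clec4e in water 2, 0.588 CPM for Cxcl10, 0.107 CPM for Mmp8 and 0.0534 CPM for Dsg3 and Krt90 in water 3, and 93.9 CPM for Igfbp5 in water 5. DSS 2 stood below the other DSS libraries in Cd3e at 0.716 CPM, Ciita at 4.24 CPM, Cr2 at 1.01 CPM, H2-Aa at 33.4 CPM and Itgax at 4.42 CPM. DSS 6 stood above them in Krt13 at 339.5 CPM, Krt6b at 392 CPM and the secretory pathway factor Xbp1 at 569.9 CPM, and below them in Cyp2c65 at 0.284 CPM. Whether segment, sampling of neighbouring tissue or severity set these libraries apart was not tested.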

How the results depend on the processing

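Of 171 named genes that passed the test, 131 passed under each of the 20 alternatives in which they had an adjusted p. The test against an absolute log2 fold change of 1 is not among these 20 and was not followed gene by gene. A gene that an alternative filtered out or gave no adjusted p was not counted as lost there. With DESeq2, for example, 162 named genes were called and no loss was counted. The count of all genes called stayed within 1.5 times of 5073 except in 2 settings. A fit of the 11 libraries alone called 2941 genes, 928 of them lower, and a test against an absolute log2 fold change of 1 called 941, with 873 higher and 68 lower. When each library was left out in turn, 3990 to 5508 genes were called, 2370 to 3019 higher and 1617 to 2516 lower.

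The 11 libraries alone ended the calls of Car4, Cftr, Slc26a3, Clca1, Cyp2c55, Cyp2c65, Fabp2, Slc13a1, Ugt1a1, Sult1b1, Nr1i2, Hnf4a, Cgn, COX1, Osr2, Ccl25, Ccl28, Csf1, Il34, Il1rn, Isg15, Il17rc, Il22ra1, Cd44, Cr2, Krt14 and S100b. Weighted voom ended or turned those of Abca12, Fabp2, Slc13a1, Itln1, Ang4, Krt5, Krt14, Ppbp, Ccl21c, Ccl21d, Ifng, Il17rc, Cyp2c65, Ugt1a1, Osr2, COX1, Ccl25, Ccnb1, Cdc20, Csf1, Il34 and S100b. The cause was not tested. Without water 4 and DSS 2 together 15 of the 171 no longer passed in their direction, among them Itln1 and Ugt1a1, and without water 4 and DSS 6 together 21, among them also Ang4, Krt13 and Krt14. Without the 3 libraries low in Hoxd13 it was 13, Itln1 and Ugt1a1 included.

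The direction turned under at least 1 alternative for 11 named genes, 5 of which had passed the test. With weighted voom the log2 fold changes were 2.25 for Abca12, 0.79 for Cdx2, 0.30 for Fabp2, −0.13 for Lyve1, 0.89 for Muc2, −0.50 for Pf4 and 2.09 for Slc13a1. Without water 4 and DSS 2 they were 6.39 for Abca12, 0.39 for Cdx2, 0.050 for Fabp2, 0.93 for Muc2, 0.80 for Osr2, −0.43 for Pf4 and 2.07 for Slc13a1. Without water 4 and DSS 6 they were 0.68 for Cdx2, 0.23 for Cyp2c65, 0.11 for Fabp2, 1.07 for Muc2, 0.28 for Osr2, −0.045 for Pf4 and 2.08 for Slc13a1. Without the 3 libraries low in Hoxd13 they were 6.12 for Abca12, 0.29 for Muc2, 0.88 for Osr2 and 1.25 for Slc13a1. With single libraries left out they ranged from −5.11 to 6.13 for Abca12, −0.97 to 0.44 for Cdx2, −0.40 to 0.12 for Il18, −1.26 to 0.87 for Muc2, −3.64 to 0.57 for Osr2, −0.27 to 0.28 for Pf4, −0.33 to 11 for Reg3b and −3.44 to 1.84 for Slc13a1.

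No paired analysis was possible because the number in each title belongs to 1 sample only. Counts under about 1 CPM, as for Il17a, Il22 and Ifng in water colon, limit how well a fold can be known. In the simulation, which had no libraries that stood apart, 67% of 2-fold changes were recovered.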
